A study of Mus musculus with 20 samples.

Results

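The genes described here are 8 members of the RGS family (regulators of G protein signalling): Rgs1, Rgs2, Rgs3, Rgs10, Rgs13, Rgs14, Rgs16 and Rgs19. They were taken by symbol from the count tables, 8 of the 41115 genes listed, and all 8 had at least 1 CPM (counts divided by the library total and scaled alike in all libraries) in at least 3 libraries. Poly-A messenger RNA was sequenced from mouse cells labelled as spleen, in 20 libraries. In the stimulated arm the treatment was a cocktail of lipopolysaccharide (LPS), interleukin 4 (IL4) and transforming growth factor beta (TGFb). The untreated arm had none of these, and each arm has 1 library at each of 0, 15 and 30 min and 1, 2, 3, 6, 12, 24 and 48 h. The labels name no genotype, strain, age or sorting step for either arm.

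By the design text the arms are 1 treated and 1 untreated mouse, so an effect of the cocktail and a difference between the animals cannot be told apart. Times in a phase stand in for replicates, and an SE or p-value below measures the spread between times and not between animals. The lanes that the labels give were also unequal, with 5 untreated libraries in lane 1, 5 stimulated ones in lane 4, and 4 of 1 arm with 1 of the other in lanes 2 and 3. At no time were both arms in 1 lane, so no difference at a matched time could be taken within a lane. Library totals ran from 36873155 to 60918651 counts, and 3 counts, taken as the floor of detection, are between 0.0492 and 0.0814 CPM. Of the markers checked, all 12 for B cells were expressed, with Cd79a between 200.8 and 363.7 CPM. Markers of other spleen cells were mixed. At 1 CPM in at least 3 libraries were 4 of 8 T cell markers (Cd5 at 32.6 to 66.0 CPM and Lck at 6.58 to 20.4 CPM, but Cd3e at most 0.237 CPM) and 4 of 9 macrophage and monocyte markers (Csf1r at 12.8 to 42.9 CPM, but Lyz2 at most 0.0816 CPM). The same held for 1 of 6 NK cell markers (Prf1 at 4.68 to 18.9 CPM, with Klrd1 at 0 counts), 1 of 5 platelet markers (Itga2b, with Pf4 at 0 counts) and 0 of 6 neutrophil markers.

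RGS proteins end G protein signals. A receptor such as a chemokine receptor loads a G alpha subunit with GTP, and the RGS domain speeds the hydrolysis of that GTP, after which alpha and beta-gamma subunits rejoin and the signal stops. In B lymphocytes these proteins are known for setting how strongly cells answer chemokines and so where they sit in the follicle.

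The 5' flanks of Rgs13 and Rgs16 are printed here because these genes had the lowest and the highest treatment values of the 8. Of the 8 genes, 6 had an entry in a RefSeq promoter table of GRCm38.p6 (Rgs2, Rgs3, Rgs10, Rgs13, Rgs16 and Rgs19, 9 start sites), and Rgs1 and Rgs14 had none there. Shown are the 250 bases before the start, 5' to 3', with the match to a searched motif in capitals.

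Rgs13, chr1:144177373-144177622, minus strand: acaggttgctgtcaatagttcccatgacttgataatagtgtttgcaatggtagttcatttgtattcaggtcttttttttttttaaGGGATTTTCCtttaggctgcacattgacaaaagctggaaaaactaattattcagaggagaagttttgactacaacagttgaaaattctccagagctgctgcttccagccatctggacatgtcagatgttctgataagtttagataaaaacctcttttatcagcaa

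Rgs16, chr1:153740103-153740352, plus strand: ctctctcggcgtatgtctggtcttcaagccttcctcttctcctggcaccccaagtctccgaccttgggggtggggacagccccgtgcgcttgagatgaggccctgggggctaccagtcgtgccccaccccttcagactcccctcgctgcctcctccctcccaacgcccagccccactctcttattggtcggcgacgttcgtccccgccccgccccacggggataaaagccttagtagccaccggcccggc

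The motifs searched on both strands were NF-kB (GGGA and TTCC with 1 or 2 bases between them), AP-1 (TGANTCA), CRE (TGACGTCA), STAT (TTC and GAA with 3 or, for STAT6, 4 bases between them) and the E-box CACGTG. The capitals in Rgs13, GGGATTTTCC, are the NF-kB letters with 2 bases between, opening at base -165, and 1.21% of all 32851 windows of the table hold that form. The form with 1 base between was found in Rgs19 as GGAAGTCCC, read on the other strand, at base -19 of 1 start site and -186 of an overlapping one; 1.43% of windows hold it. No searched motif was in the window of Rgs16, nor in those of Rgs2, Rgs3 and Rgs10. Shares over all windows for the others were 6.75% for AP-1, 1.55% for CRE, 7.02% for STAT, 5.85% for STAT6 and 6.02% for the E-box. Such matches describe letters only and show no binding. The flanks differ in composition, with 36% G and C in Rgs13 and 66.4% in Rgs16.

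Rgs13 dominated the family. Compared per length (RPKM, CPM per kilobase of exon of protein-coding transcripts), Rgs13 averaged 465 over the 20 libraries and ranged from 249.8 to 918.6. It made up between 82.9% and 94.9% of the summed RPKM of the 8 genes, and by mean CPM it ranked 123 of all genes. Next came Rgs19 with a mean RPKM of 31.4 (27.7 to 39.8), then Rgs1 with 12.6 (5.15 to 27.0). Below these lay Rgs10 (mean RPKM 3.89), Rgs2 (3.33) and Rgs14 (3.02), whose ranges over the libraries overlapped so that their order is not fixed. Rgs16 averaged an RPKM of 0.907 and Rgs3 0.512, again with overlapping ranges. Without Rgs13 the summed RPKM of the other 7 genes stayed between 47.98 and 71.5 in all libraries.

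**Figure D1:**
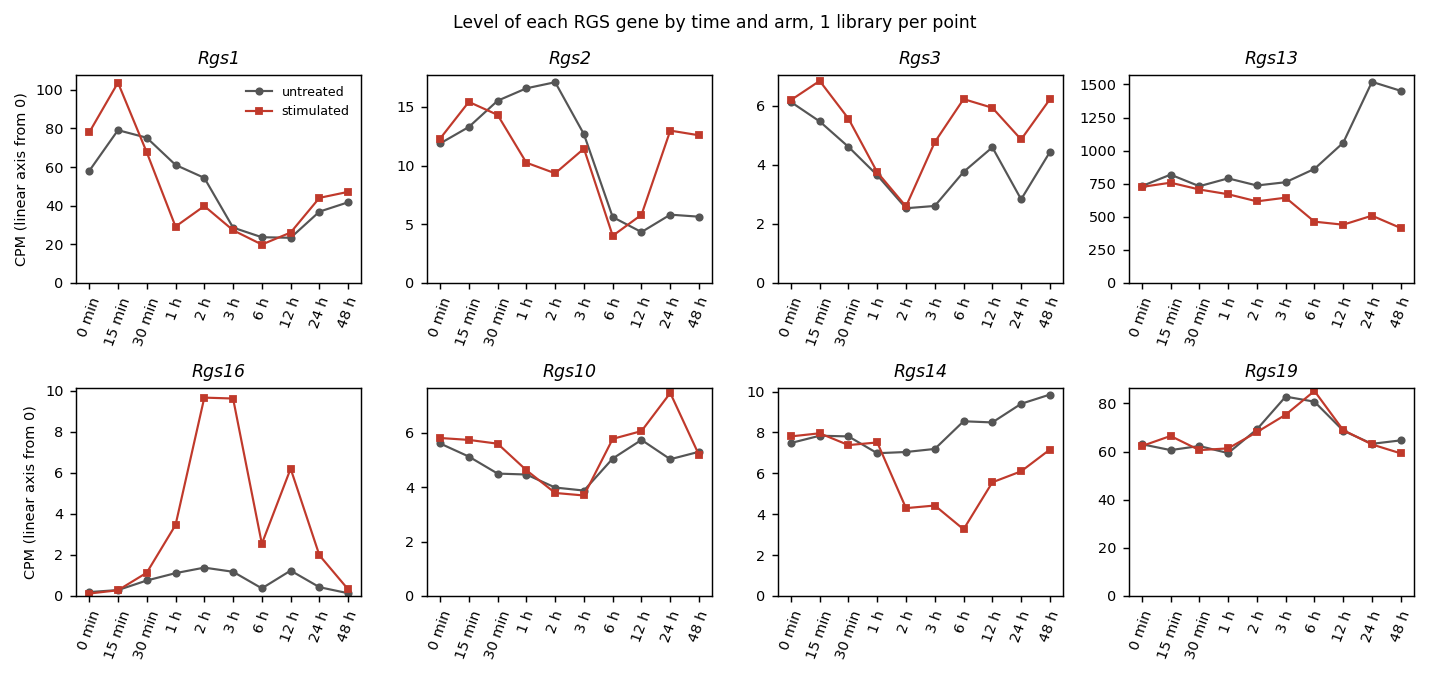
CPM of each of the 8 RGS genes (linear axis from 0, a scale of its own for each gene) against time in the untreated (grey circles) and stimulated (red squares) arm, 1 library per point and no error bars. Rgs13 parts after 3 h to 1452 CPM untreated and 413.5 stimulated at 48 h, Rgs16 peaks at 9.67 CPM in the stimulated arm at 2 h, and the arms of Rgs19 lie together.

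Treatment was tested in 3 phases, called early (15 and 30 min with 1 h), middle (from 2 to 6 h) and late (from 12 to 48 h), each arm contributing 3 libraries to a phase, with edgeR's quasi-likelihood test and an adjusted p under 0.05 as the threshold. In the early phase 0 of the 8 genes passed, where 2.24% of the 12042 genes tested did. At an unadjusted p under 0.05 there was 1 (Rgs16), and DESeq2 called 0 as well. In the middle phase 4 passed, Rgs16 and Rgs3 higher and Rgs14 and Rgs13 lower under stimulation, against 20.5% of all genes. In the late phase 5 passed, Rgs16, Rgs2 and Rgs3 higher and Rgs13 and Rgs14 lower, against 36.1% of all genes. The median size of the log2 fold change over the 8 genes was 0.19 early, 0.41 in the middle and 0.55 late, beside 0.09, 0.13 and 0.17 over all genes tested. With lane as a term and time as a smooth curve, an alternative chosen after seeing the data, 0 of the 8 passed in the middle and 0 in the late phase, and of all genes 21 and 185 did. The values in these phases were then 3.23 and 3.03 for Rgs16, and -0.02 and -1.20 for Rgs13. Relative to the difference of the 0 min libraries, 0 passed in the middle and 1, Rgs13, in the late phase, and of all genes 43 and 847 did.

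**Figure D2:**
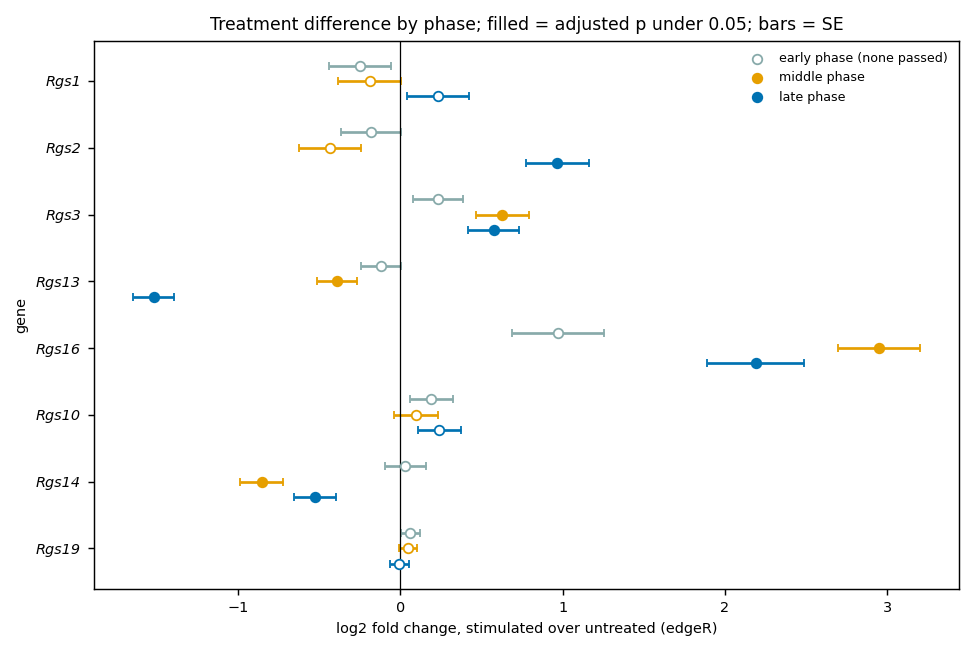
Log2 fold change (stimulated over untreated, edgeR) of each gene in the early, middle and late phase with its SE as bars, 3 libraries per arm and phase; filled points passed an adjusted p of 0.05. Rgs16 reaches 2.95 in the middle phase and Rgs13 -1.52 in the late phase, while Rgs1, Rgs10 and Rgs19 passed in no phase.

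Rgs13 (ENSMUSG00000051079, chr1:144138654-144177372, minus strand, GRCm38) belongs to the R4 subfamily, proteins that are little more than an RGS domain, and is known from germinal centre B cells, where it damps the chemokine receptors Cxcr4 and Cxcr5. Untreated libraries held 731 CPM at 0 min, 818 at 15 min, 730.1 at 30 min, 789 at 1 h, 736 at 2 h, 760.3 at 3 h, 861 at 6 h, 1059 at 12 h, 1520.0 at 24 h and 1452 at 48 h. The untreated level thus stayed near its start for 3 h and stood 1.99 times above it at 48 h. Stimulated libraries held 725 CPM at 0 min, 757 at 15 min, 705 at 30 min, 669 at 1 h, 616 at 2 h, 643 at 3 h, 462 at 6 h, 439 at 12 h, 507 at 24 h and 413.5 at 48 h. Before treatment the arms differed by 1.01-fold, from 2 h on every stimulated library lay below every untreated one of the same phase, and at 48 h the stimulated level was 3.51-fold lower.

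Late, the mean was 1344 ± 249 CPM untreated and 453 ± 48.4 stimulated (SD over 3 times), which is -1.52 ± 0.13 as a log2 fold change with its SE (adjusted p = 1.06e-05). In the middle phase it was -0.39 ± 0.13 (adjusted p = 0.0479). The late effect was lower than the early one by -1.40 ± 0.18 (adjusted p = 0.000459), in a comparison that 19.7% of all genes passed, and this difference kept its call in every alternative run. From the middle to the late phase Rgs13 rose in the untreated arm by 0.81 ± 0.15 (adjusted p = 0.00648, passed by 12% of genes), and its stimulated value over the same step, -0.32 ± 0.15, did not pass (adjusted p = 0.132, passed by 21.6%). The middle-phase call was lost in DESeq2 (adjusted p = 0.0657) and without 15 min, 30 min, 1 h, 2 h, 3 h, 6 h or 24 h, with -0.18 left without 6 h. It was also lost with moved phase limits (-0.19), relative to the 0 min pair, without a time factor and with the smooth curve (adjusted p = 0.0936). With the smooth curve and lane the middle-phase value was -0.02 (adjusted p = 0.983). The late call was lost with the smooth curve and lane (-1.20, adjusted p = 0.0601). The rise in the untreated arm was lost without 3 h (adjusted p = 0.0539) and with lane as a term (0.0845).

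In the late phase the summed level of the 12 B cell markers was, like Rgs13, lower in the stimulated arm. It was 2120 to 2366 CPM untreated and 1471 to 1746 CPM stimulated, with 6 of 12 markers lower, 0 higher and none at 0. At 0 min the sums were 2872 CPM untreated and 2828 CPM stimulated, so the untreated sum fell by the late phase while untreated Rgs13 rose. The part of these markers in the result was not tested. Fewer cells of a type and less RNA per cell cannot be told apart in such bulk libraries. Of 7 germinal centre markers, Mef2b (39.7 to 107.3 CPM) and S1pr2 (10.6 to 29.6 CPM) were expressed, Bcl6 reached only 0.356 CPM and Gcsam had 0 counts. Sums of 2 other lists were higher late under stimulation: 9 macrophage and monocyte markers went from 24.1 to 39.6 CPM untreated to 43.8 to 98.8 CPM stimulated (2 higher, 0 lower), and 6 dendritic cell markers from 17.97 to 22.3 CPM to 32.6 to 66.5 CPM (2 higher, 0 lower). Their part in any result below was not tested. Mast cells are another cell type known for Rgs13. Of 5 markers of mast cells and basophils, 4 were at or under 3 counts in every library. Fcer1a was above 3 counts in some and reached 0.466 CPM; late, the list summed to 0 CPM in every untreated library and to at most 0.449 CPM in a stimulated one.

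Rgs13 lies between Rgs2 and Rgs1 on chromosome 1, all on the minus strand, and is the only protein-coding gene between them. Its neighbours are 134.5 kb (Rgs2) and 64.9 kb (Rgs1) away, and the 3 genes span 249.9 kb. Their courses differed. Between 0 min and 48 h the level went to 1.99 times its start for Rgs13, 0.474 for Rgs2 and 0.72 for Rgs1 in the untreated arm, and to 0.571, 1.02 and 0.605 in the stimulated arm. Beyond Rgs1 in the same cluster, Rgs21 and Rgs18 had 6 counts each over all libraries. So 3 active genes and 2 at or near the floor sit within 776.1 kb.

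**Figure D3:**
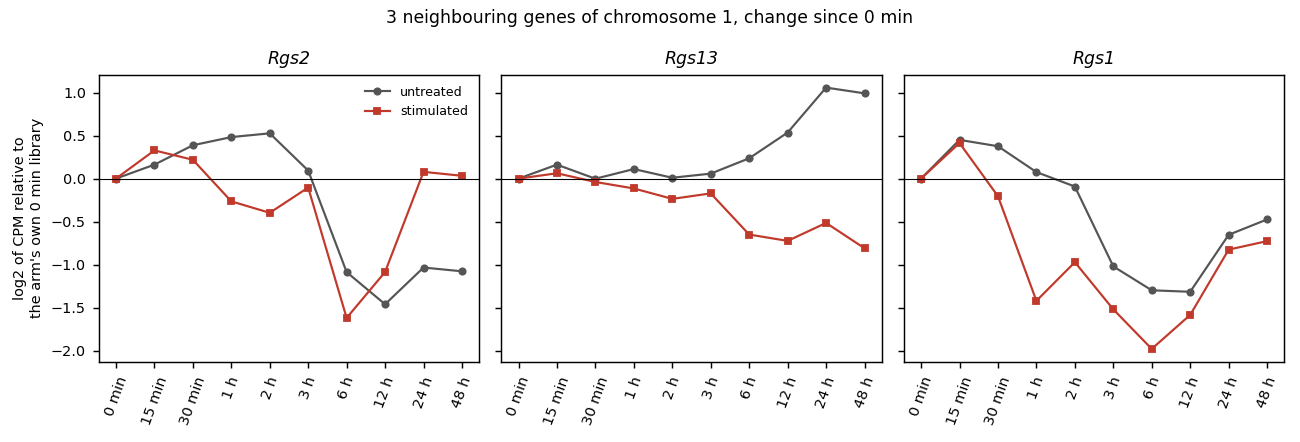
Log2 of CPM relative to the 0 min library of the same arm for the neighbouring genes Rgs2, Rgs13 and Rgs1, against time, 1 library per point and no error bars. At 48 h Rgs13 is at 1.99 times its start untreated and 0.571 stimulated, whereas Rgs2 is at 0.474 untreated and 1.02 stimulated; Rgs1 ends below its start in both arms.

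Rgs2 (ENSMUSG00000026360, chr1:143999338-144004161, minus strand), an R4 protein that prefers the Gq class of alpha subunits, was higher in the stimulated than in the untreated arm in the late phase, after low levels at 6 h in both. Untreated libraries held 11.9 CPM at 0 min, 13.3 at 15 min, 15.5 at 30 min, 16.6 at 1 h, 17.1 at 2 h, 12.7 at 3 h, 5.60 at 6 h, 4.32 at 12 h, 5.81 at 24 h and 5.63 at 48 h. Stimulated libraries held 12.3 CPM at 0 min, 15.4 at 15 min, 14.3 at 30 min, 10.2 at 1 h, 9.34 at 2 h, 11.4 at 3 h, 4.004 at 6 h, 5.80 at 12 h, 13.0 at 24 h and 12.6 at 48 h. Both arms were low at 6 and 12 h, and at 24 and 48 h only the stimulated arm was near its start, 2.24-fold and 2.23-fold above the untreated one.

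Late, Rgs2 averaged 5.25 ± 0.81 CPM untreated and 10.5 ± 4.04 stimulated, a log2 fold change of 0.97 ± 0.19 (adjusted p = 0.00275), higher at 3 of 3 times although the arms' ranges overlapped by the 12 h library. This late call was lost relative to the 0 min pair (adjusted p = 0.175), without a time factor (0.122) and with a smooth curve of time and lane (0.507). In the middle phase the log2 fold change was -0.43 ± 0.19 and did not pass (adjusted p = 0.134). The late effect exceeded the early one by 1.15 ± 0.27 (adjusted p = 0.0122), a call that was lost without 24 h (1.04, adjusted p = 0.0517), with a smooth curve of time (adjusted p = 0.114) and with moved phase limits (0.59, adjusted p = 0.364). The untreated step from the middle to the late phase, -1.13 ± 0.40, did not pass in edgeR (adjusted p = 0.0764) and did in DESeq2 (0.0258).

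Rgs1 (ENSMUSG00000026358, chr1:144242296-144249242, minus strand), an R4 protein that limits chemokine-driven movement of B cells, was high at 15 min in both arms and low from 3 to 12 h in both. Untreated libraries held 57.96 CPM at 0 min, 79.1 at 15 min, 75.2 at 30 min, 61.1 at 1 h, 54.4 at 2 h, 28.6 at 3 h, 23.6 at 6 h, 23.3 at 12 h, 36.9 at 24 h and 41.7 at 48 h. Stimulated libraries held 77.9 CPM at 0 min, 103.8 at 15 min, 67.6 at 30 min, 29.1 at 1 h, 39.8 at 2 h, 27.2 at 3 h, 19.8 at 6 h, 26.0 at 12 h, 44.0 at 24 h and 47.1 at 48 h. The widest gap was at 1 h, where the stimulated library was 2.10-fold lower, and before treatment it was already 1.35-fold higher, so single-time ratios of this gene carry a difference of the starting libraries. From the early to the middle phase Rgs1 fell in the stimulated arm by 1.06 on the log2 scale (SE 0.40, adjusted p = 0.0434), a step that 41.3% of all genes passed. That call was lost without 15 min (-0.61), 30 min, 3 h, 6 h, 24 h or 48 h and with lane as a term (adjusted p = 0.099). It was also lost with moved phase limits (-1.29, adjusted p = 0.0765). The untreated value over that step was -0.94 ± 0.40 and did not pass (adjusted p = 0.0916, passed by 25.4% of genes); DESeq2 called it (0.0476).

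Rgs16 (ENSMUSG00000026475, chr1:153740349-153745468, plus strand), an R4 protein whose transcript is known to be switched on during lymphocyte activation, started near the floor. Untreated libraries held 0.19 CPM at 0 min, 0.288 at 15 min, 0.754 at 30 min, 1.11 at 1 h, 1.38 at 2 h, 1.18 at 3 h, 0.372 at 6 h, 1.24 at 12 h, 0.428 at 24 h and 0.133 at 48 h. Stimulated libraries held 0.119 CPM at 0 min, 0.279 at 15 min, 1.13 at 30 min, 3.46 at 1 h, 9.67 at 2 h, 9.62 at 3 h, 2.54 at 6 h, 6.21 at 12 h, 1.98 at 24 h and 0.321 at 48 h. Stimulated levels were highest at 2 and 3 h, where they stood 6.995-fold and 8.16-fold above untreated, and by 48 h both arms were again below 1 CPM.

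In the middle phase the arms did not overlap, with 0.977 ± 0.534 CPM untreated and 7.28 ± 4.10 stimulated. The log2 fold change was 2.95 ± 0.25 (adjusted p = 6.63e-05), the 9th largest in size of the 12042 genes tested. Late it was 2.19 ± 0.30 (adjusted p = 0.000224), and the arms overlapped (0.133 to 1.24 CPM untreated, 0.321 to 6.21 CPM stimulated). The middle effect exceeded the early one by 1.98 ± 0.38 (adjusted p = 0.0159), where 6.39% of all genes passed. This last call was lost without 15 min, 30 min or 3 h (adjusted p up to 0.0886) and with a smooth curve of time (1.08, adjusted p = 0.432). It was also lost with moved phase limits (2.2, adjusted p = 0.35) and with the smooth curve and lane (1.79, adjusted p = 0.342). With neither a time factor nor a smooth curve, the middle (adjusted p = 0.186) and the late call (0.184) were lost. Both were also lost relative to the 0 min pair (3.61 and 2.87) and with the smooth curve and lane (adjusted p = 0.258 and 0.173). Of its exon bases, 236 are shared with Gm28513 on the opposite strand; without a stated strand setting, reads there cannot be assigned.

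Rgs3 (ENSMUSG00000059810, chr4:62559847-62704001, plus strand), an R4 protein with several longer isoforms, was low throughout. Untreated libraries held 6.13 CPM at 0 min, 5.47 at 15 min, 4.61 at 30 min, 3.65 at 1 h, 2.53 at 2 h, 2.60 at 3 h, 3.76 at 6 h, 4.59 at 12 h, 2.83 at 24 h and 4.43 at 48 h. Stimulated libraries held 6.20 CPM at 0 min, 6.85 at 15 min, 5.56 at 30 min, 3.75 at 1 h, 2.59 at 2 h, 4.77 at 3 h, 6.23 at 6 h, 5.93 at 12 h, 4.86 at 24 h and 6.22 at 48 h. Both arms were at their lowest at 2 h, after which the stimulated arm was higher at every later time and level with its start at 6 h. The log2 fold change was 0.63 ± 0.16 in the middle (adjusted p = 0.0208) and 0.57 ± 0.16 in the late phase (adjusted p = 0.0151), when the arms did not overlap. These calls were lost without 3 h (0.47) or 6 h (0.52) in the middle phase and without 24 h (0.47, adjusted p = 0.0957) in the late phase, and both with a smooth curve of time (adjusted p = 0.0902 and 0.0955). The middle call was also lost with moved phase limits (0.37, adjusted p = 0.277). Both were lost relative to the 0 min pair (adjusted p = 0.44 and 0.324), without a time factor (0.318 and 0.268) and with the smooth curve and lane (0.808 and 0.678).

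Rgs14 (ENSMUSG00000052087, chr13:55369732-55384687, plus strand) belongs to the R12 subfamily and carries Ras-binding and GoLoco domains beside the RGS domain, so it holds inactive G alpha i as well. Untreated libraries held 7.49 CPM at 0 min, 7.84 at 15 min, 7.81 at 30 min, 6.99 at 1 h, 7.05 at 2 h, 7.20 at 3 h, 8.55 at 6 h, 8.49 at 12 h, 9.40 at 24 h and 9.86 at 48 h. Stimulated libraries held 7.81 CPM at 0 min, 7.96 at 15 min, 7.38 at 30 min, 7.51 at 1 h, 4.30 at 2 h, 4.43 at 3 h, 3.26 at 6 h, 5.56 at 12 h, 6.10 at 24 h and 7.17 at 48 h. The arms were alike to 1 h, the stimulated arm was lower from 2 h on, and at 48 h it was at 0.918 times its start.

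Rgs14 was lower under stimulation at 3 of 3 times in the middle and in the late phase, without overlap, at -0.86 ± 0.13 (adjusted p = 0.00184) and -0.53 ± 0.13 (adjusted p = 0.0083). Within the stimulated arm it fell by 0.80 from the early to the middle phase (SE 0.14, adjusted p = 0.000792) and rose by 0.66 ± 0.14 from the middle to the late phase (adjusted p = 0.00553). The middle effect was lower than the early one by -0.89 ± 0.19 (adjusted p = 0.0223). That difference was lost without 15 min, 30 min or 1 h (adjusted p up to 0.0917) and with lane as a term (-0.91, adjusted p = 0.098). It was also lost with moved phase limits (-0.35, adjusted p = 0.796) and with the smooth curve and lane (-0.81, adjusted p = 0.161). The late call was lost without 24 h (-0.49, adjusted p = 0.0529). Both phase calls were lost relative to the 0 min pair (-0.92 middle, -0.58 late). Both were also lost with the smooth curve and lane (-0.73, adjusted p = 0.318, and -0.39, adjusted p = 0.555). With moved phase limits the stimulated fall was lost too (-0.385, adjusted p = 0.343). With the middle phase moved to 1, 2 and 3 h, the middle value was -0.37 (adjusted p = 0.308) and the step into the late phase 0.07 (adjusted p = 0.815).

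Rgs10 (ENSMUSG00000030844, chr7:128373621-128418758, minus strand), a short R12 protein acting on G alpha i, ran from 3.88 to 5.74 CPM untreated and from 3.70 to 7.47 CPM stimulated. The lowest library of each arm was that of 3 h and the highest the stimulated one of 24 h. It passed in 0 of the 9 comparisons, with treatment values of 0.19 ± 0.13 early, 0.09 ± 0.14 in the middle and 0.24 ± 0.13 late (adjusted p = 0.186). Its stimulated step from the middle to the late phase, 0.52 ± 0.20 (adjusted p = 0.0719), passed in DESeq2 (0.0475), without 6 h (0.75, adjusted p = 0.00633) and without 48 h (0.0254).

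Rgs19 (ENSMUSG00000002458, chr2:181688419-181693977, minus strand), of the RZ subfamily and also known as GAIP, changed over time in both arms, with treatment values near 0. Its level was 63.1 CPM untreated and 62.3 CPM stimulated at 0 min, 82.8 and 75.3 CPM at 3 h, 80.7 and 85.2 CPM at 6 h, and 64.7 and 59.3 CPM at 48 h. Both arms peaked at 3 or 6 h and were back near their start by 24 h. From the early to the middle phase it rose by 0.43 ± 0.10 untreated (adjusted p = 0.00998) and by 0.41 ± 0.10 stimulated (adjusted p = 0.00606). Treatment values were 0.06 ± 0.06, 0.05 ± 0.06 and -0.01 ± 0.06 in the 3 phases, the smallest SE of the family. The untreated rise was lost without 30 min (adjusted p = 0.0507) or 3 h (0.0694), and with moved phase limits both rises were (0.28 untreated, 0.24 stimulated).

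**Figure D4:**
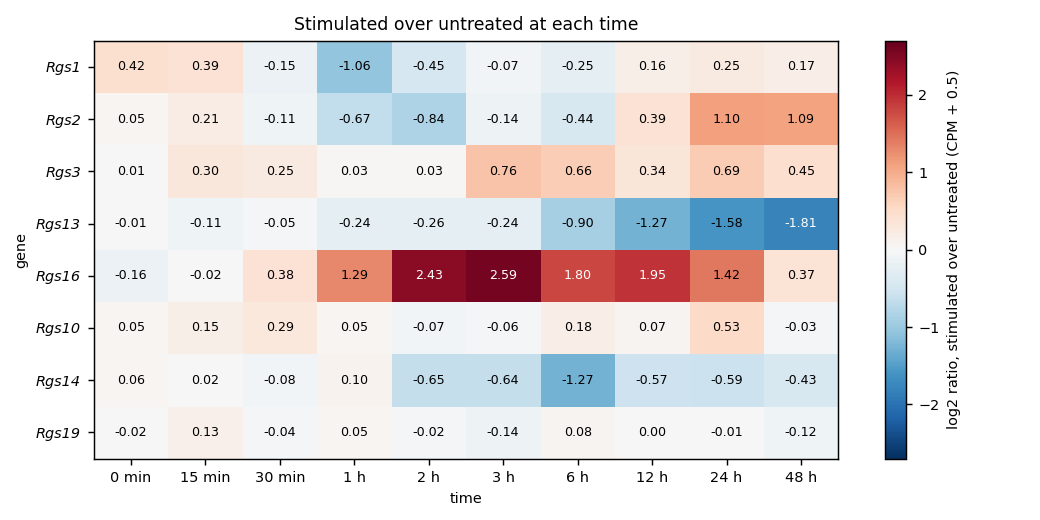
Log2 ratio of stimulated over untreated (CPM plus 0.5) for each gene (rows) and time (columns), 1 library per arm behind each value; red is higher and blue lower under stimulation. Rgs16 is highest at 3 h with 2.59, Rgs13 is lowest at -1.81 at 48 h, Rgs2 turns from -0.84 at 2 h to 1.10 at 24 h, and Rgs14 is lowest at 6 h with -1.27.

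Among the 8 genes, the highest correlation of log2(CPM + 0.5) over the 20 libraries was between Rgs1 and Rgs2 (Pearson r = 0.753), and Rgs13 and Rgs14 had r = 0.688. Rgs16 and Rgs14 ran opposite (r = -0.757). The libraries share arms, times and lanes, so these values only describe them. The genes most like each member by that measure, among named genes with a mean of at least 5 CPM, were Plac8 (r = 0.932), Nsmaf (0.92) and Gnat3 (0.919) for Rgs13, and Slc15a3 (r = 0.914), Irf5 (0.909) and Kctd10 (0.907) for Rgs16. Gnat3, a G alpha subunit known from taste cells, held 11.2 CPM at 0 min untreated, and at 24 h 37.5 CPM untreated and 6.73 CPM stimulated. For Rgs14 they were Tmem229b (r = 0.927), Arhgap33 (0.926) and Filip1l (0.895), and for Rgs19 Upf3a (r = 0.944), Mrfap1 (0.929) and the heat shock protein Hsph1 (0.913). Rgs1 ran most like Hdac8 (r = 0.921), Zfp398 (0.901) and Ggps1 (0.887), and Rgs2 like Chst11 (r = 0.878), Ing2 (0.872) and Ccser2 (0.871). Rgs3 ran most like Rsl1 (r = 0.906), Klhl8 (0.902) and Dtx3l (0.891), and Rgs10 like Tmem242 (r = 0.891), Mrps5 (0.876) and Tmem69 (0.87).

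Of the other 13 RGS genes, only Rgs12 and Rgs9 reached 1 CPM in 3 libraries. At or under 3 counts in every library were 7 (Rgs4, Rgs5, Rgs6, Rgs7, Rgs17, Rgs18 and Rgs22). Rgs12, the large R12 relative of Rgs14, ran from 4.20 to 8.37 CPM untreated and from 12.5 to 22.1 CPM stimulated in the late phase, without overlap. Its late log2 fold change was 1.62 ± 0.18 (adjusted p = 6.6e-05), opposite in sign to that of Rgs14. The late value of Rgs9 was 0.36 ± 0.17 and did not pass (adjusted p = 0.13).

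RGS proteins act on G alpha subunits. Gnat3, at 37.5 CPM untreated and 6.73 CPM stimulated at 24 h, was not in the list used here. Of the 13 subunits listed, 10 were tested. In the late phase, in which 17.8% of all genes were higher and 18.3% lower, 5 were higher and 1 lower under stimulation, led by Gnaz, a G alpha of the Gi class, with 2.24 ± 0.33 on the log2 scale (4.05 to 7.53 CPM untreated, 13.6 to 55.1 CPM stimulated), and Gna15, of the Gq class, with 1.91 ± 0.20. The abundant Gnai2, the main Gi alpha of lymphocytes, was lower by -0.13 ± 0.04 (adjusted p = 0.0376). Of 10 beta and gamma subunits tested, 0 were higher and 4 lower, among them Gnb3 with -2.28 ± 0.24 and Gngt2 with -0.97 ± 0.10. The median over the list was 0.17 for alpha and -0.12 for beta and gamma subunits, and 0 over all genes to 2 decimals.

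Of 17 receptors that guide B cell migration, 8 were higher and 3 lower late, beside 17.8% and 18.3% of all genes. Gpr15 was highest with 4.25 ± 0.30 (2.92 to 3.67 CPM untreated, 55.1 to 65.4 CPM stimulated), and Gpr183, the oxysterol receptor that draws B cells to the outer follicle, had 1.52 ± 0.23 (adjusted p = 0.000436). S1pr2, which confines germinal centre B cells, was lower by -0.92 ± 0.16 (adjusted p = 0.00134). Cxcr4 was the 1 receptor called in the early phase, at 0.41 ± 0.06 (adjusted p = 0.0088), with 88.4 to 112 CPM untreated and 126.6 to 139.8 CPM stimulated. Of 5 receptor kinases and arrestins tested, Grk5 was higher (0.66 ± 0.08) and Grk6 lower (-0.46 ± 0.06) late, and of 6 other G protein regulators 1 was lower, Ric8b (-0.25 ± 0.08), and 0 higher.

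Of 11 downstream effectors tested, 0 were higher and 6 lower late, beside 17.8% and 18.3% of all genes, with a list median of -0.24. Pik3cg, the PI3 kinase driven by beta-gamma subunits, went from 139.2 to 149.1 CPM untreated to 15.3 to 35.5 CPM stimulated, a log2 fold change of -2.50 ± 0.23 (adjusted p = 1.71e-05). Rasgrp2 (-1.37 ± 0.10), an activator of Rap1, and Plcb2 (-1.27 ± 0.12), a phospholipase C, followed. Of 9 other proteins with an RGS or related domain, 3 were higher and 4 lower, including Arhgef1 (-0.31 ± 0.05), a nucleotide exchange factor downstream of G alpha 12 and 13, and Axin2 (0.80 ± 0.18), a scaffold of Wnt signalling.

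**Figure D5:**
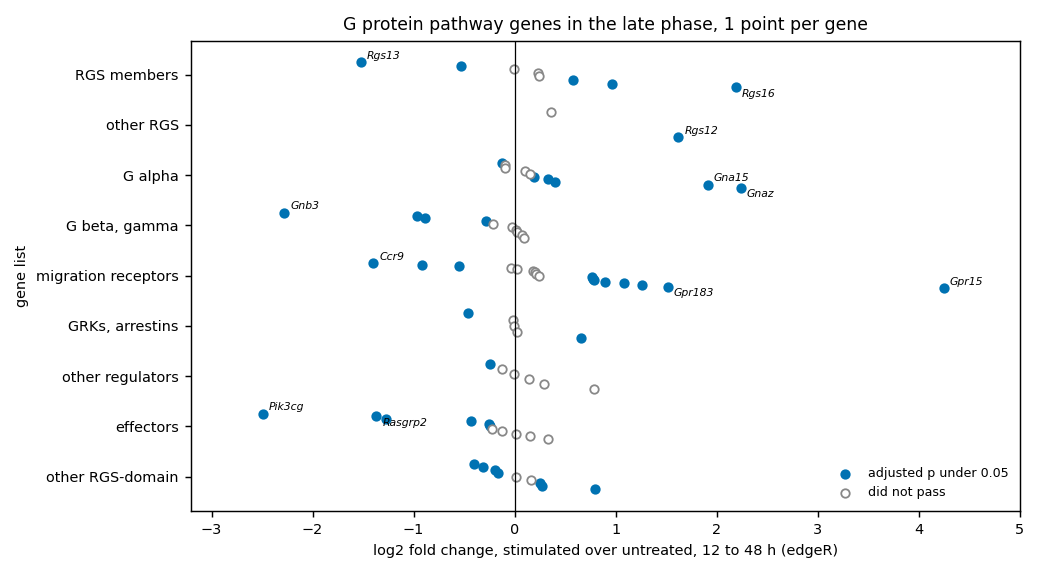
Late-phase log2 fold change (stimulated over untreated, edgeR), 1 point per tested gene in each list of G protein pathway genes; filled points passed an adjusted p of 0.05 and genes beyond 1.3 in size are named. Effectors lie mostly below 0 (0 higher, 6 lower of 11) and the listed G alpha subunits, which leave out Gnat3, mostly above (5 higher, 1 lower of 10). Rgs13 and Rgs16 bound the 8 RGS genes at -1.52 and 2.19.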

How the data were processed

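Poly-A libraries of 20 samples (10 stimulated, 10 untreated) were used. The deposited values are counts per gene, which the submitters' processing notes credit to STAR, HTSeq and the build GRCm38.p3 (mm10). Versions and the strand setting are not given in the sources used. CPM divides counts by the library total. RPKM uses exon lengths of protein-coding transcripts in the GENCODE annotation of GRCm38.

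The test was the quasi-likelihood one of edgeR 4.0.16 (under R 4.3.3) after TMM scaling, with Benjamini-Hochberg adjustment over all genes that reached 1 CPM in 3 or more libraries and a threshold of 0.05. These were 12042 genes for the 18 libraries after 0 min and 12139 for all 20. Treatment effects within 3 phases were fitted with time as a factor; steps over time within an arm came from a fit of arm by phase groups. The SE is the size of the log2 fold change divided by the square root of F. Log2 ratios at single times use CPM plus 0.5, or plus 2 as an alternative. Fold differences given at single times are ratios of CPM with nothing added. The fits were tested on simulated data.

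Alternatives were RLE factors, library totals, DESeq2 1.42.0, other filters (none, 5 CPM), lane, moved phase limits (15 and 30 min; 1, 2 and 3 h; 6 to 48 h), no time factor, differences relative to 0 min, and each time left out. A spline of time (3 degrees of freedom), with and without lane, was added after seeing the data. From each pathway list the genes named are, at most, the 3 highest and 3 lowest past the threshold, given here as a selection. The members and lists were chosen with earlier results of these data known. Counting intervals and the floor cover counting error only. Some items are not reported here.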

Additional observations from a re-analysis of the deposited data

Results flagged for a closer look

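The treatment effect differed between phases, by a test of the difference itself, in 4 of 16 such tests over the 8 genes. These were 2 of 8 in late minus early, where 19.7% of all genes passed, and 2 of 8 in middle minus early, where 6.39% did. For Rgs13 the late effect was lower than the early one by -1.40 on the log2 scale (adjusted p = 0.000459), and for Rgs2 the late effect was higher than the early one by 1.15 (adjusted p = 0.0122). For Rgs16 the middle effect exceeded the early one by 1.98 (adjusted p = 0.0159), and for Rgs14 it was below the early one by -0.89 (adjusted p = 0.0223). Each of the 16 courses of 10 libraries (a gene in an arm) was also checked for a library far from the others, and 0 were found.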

How the results depend on the processing

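Of 1256 values of the 8 genes recomputed under the alternatives, 1148 kept direction and side of the threshold, 73 lost their call, 35 gained one and 0 called values reversed; 52 values without a call changed sign. RLE factors and a filter of 5 CPM moved no count of called genes by over 1.5 times. With no filter, 1 gene passed early, 5 in late minus early, and 2 in each untreated step. Of all genes 747, 2777, 2638 and 1043 did. DESeq2 called 2 in each untreated step and 2 in the stimulated late minus middle step, against 3802, 2223 and 3300 of all genes. With lane as a term 1 passed in middle minus early and 0 in the untreated late minus middle step, against 241 and 1 of all genes. The phase effects themselves could not be fitted with lane beside the time factor. Moved phase limits left 1 in the middle phase, 0 in middle minus early, 0 in either arm's middle minus early step, and 2 (untreated) and 3 (stimulated) in late minus middle. Of all genes, these limits left 458 in the middle phase and 2 in middle minus early. In the arms' middle minus early steps they left 0 (untreated) and 99 (stimulated), and in late minus middle 3118 and 4652. Relative to the 0 min pair 0 passed in the middle and 1 late; without a time factor 1 and 2. The spline, chosen after seeing the data, gave 2 in the middle, 1 in late minus early and 1 in middle minus early. With lane it gave 0 in the middle, 0 late, 1 in late minus early (Rgs13) and 0 in middle minus early. Of all genes, the spline gave 861 in late minus early and 261 in middle minus early, and with lane 442 and 59. Leaving out each time in turn gave 0 to 0 early, 2 to 4 in the middle, 3 to 5 late, 1 to 3 in late minus early, 0 to 2 in middle minus early, 0 to 2 and 0 to 3 in the untreated steps, and 2 to 4 and 1 to 3 in the stimulated ones. Over all genes these ranges were 9 to 494 early, 899 to 3004 in the middle and 3056 to 4502 late. They were 1372 to 2622 in late minus early and 136 to 1296 in middle minus early. In the untreated steps they were 698 to 4316 and 93 to 3833, and in the stimulated ones 3164 to 5833 and 812 to 4836. Library totals in place of TMM shifted the median of all genes by -0.14 in the stimulated middle minus early step. A pseudocount of 2 CPM moved 6 of 80 single-time ratios beyond their counting interval. Over all genes, the early count of 270 became 426 with DESeq2, 747 with no filter, 62 with moved limits, 38 with the spline, 5 without a time factor, 0 relative to the 0 min pair and 0 with spline and lane. In the same order from moved limits on, the middle count of 2463 became 458, 1247, 247, 43 and 21. The late count of 4351 became 2331 with the spline, 1447 without a time factor, 847 relative to the 0 min pair and 185 with spline and lane. The treatment fits pair the arms by time; the labels give no replicate numbers for any further block.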
